A study of Mus musculus with 38 samples.

Results

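The 8 genes described here encode chemokine ligands. They are Ccl2, Ccl7, Ccl11, Cxcl1, Cxcl2, Cxcl5, Cxcl12 and Cx3cl1, chosen by name as the rows of the count table whose Ensembl identifiers carry these symbols in the GRCm39 annotation, and they are 8 of 35682 genes. RNA was sequenced from cardiomyocytes, endothelial cells (ECs) and fibroblasts of male C57BL/6 mouse hearts, aged 8 to 12 weeks, in 38 libraries that each pooled 2 hearts. Sham mice received oral vehicle (dimethylsulfoxide in saline) for 6 weeks and an open-chest operation without ischemia. Control-AMI mice (labelled Control_IR) received vehicle for 6 weeks, then 30 minutes of ischemia by ligation of the left anterior descending artery and 2 hours of reperfusion. EMPA–Pre-AMI mice (labelled EMPA_IR) received empagliflozin (EMPA), an SGLT2 inhibitor, at 10 mg/kg/d for 6 weeks before the same ischemia and reperfusion. In the order Sham, Control-AMI and EMPA–Pre-AMI there were 4, 5 and 4 cardiomyocyte libraries, 4, 4 and 5 EC libraries, and 4, 4 and 4 fibroblast libraries. Cells came from the part of the heart below the suture. Cardiomyocytes were enriched by low-speed centrifugation and not sorted, ECs were sorted as CD45-, CD31+ cells, and fibroblasts as CD45-, CD31-, CD90+ cells.

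Chemokines are small secreted proteins that steer leukocytes along gradients through G protein-coupled receptors. Cxcl1, Cxcl2 and Cxcl5 act on Cxcr2 and draw neutrophils into injured myocardium. Ccl2 and Ccl7 act on Ccr2 and draw monocytes, and Ccl11 (eotaxin) acts on Ccr3 and draws eosinophils. Cxcl12 is a homeostatic ligand of Cxcr4 and Ackr3 that retains and recruits progenitor cells and maintains vessels, and Cx3cl1 (fractalkine) is a membrane-anchored ligand of Cx3cr1 on the endothelial surface that proteases can shed. The questions put to the data were which population carried each ligand in Sham hearts, which ligands changed at 2 hours of reperfusion, and whether EMPA pretreatment altered that change.

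Levels are given as CPM, the count of a gene scaled to the size of its library, with scaling factors set over all 38 libraries together. P-values measure the spread between these libraries. A floor of 3 counts corresponded to 1.64 to 3.51 CPM in cardiomyocyte, 0.873 to 1.303 CPM in EC and 0.692 to 1.08 CPM in fibroblast libraries. The summed CPM of 9 cardiomyocyte markers was 48126 to 113533 in cardiomyocyte libraries and at most 931 elsewhere, that of 11 EC markers was 4834 to 10000 in EC libraries and 105.7 to 610 in fibroblast libraries, and that of 10 fibroblast markers was 12172 to 18482 in fibroblast libraries. The cardiomyocyte preparations also held EC markers at 1161 to 2681 CPM and fibroblast markers at 475 to 4498 CPM. In these bulk libraries fewer cells of a type and less RNA per cell cannot be told apart. A false discovery rate (FDR) below 0.05 over all genes tested in a comparison was the threshold throughout. The sample numbers in the labels fall into 4 ascending runs, called sheet runs here; the labels do not say what a run was, and groups were spread unevenly over them.

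In Sham hearts Ccl2, Ccl7, Ccl11 and Cxcl1 were higher in fibroblasts than in ECs, and Cxcl12 and Cx3cl1 were higher in ECs. These 6 of the 8 members passed the test, against 37.7% of all 12085 genes tested between Sham ECs and fibroblasts. No Sham EC library shared a sheet run with a Sham fibroblast or Sham cardiomyocyte library. Population and run therefore cannot be told apart among these Sham libraries, and a sheet run term draws on libraries of the AMI groups. Cxcl12 was at 799, 655, 1012 and 886 CPM in the 4 Sham EC libraries and at 91.8, 64.8, 59.1 and 48.7 CPM in the Sham fibroblast libraries. The groups did not overlap, and Cxcl12 was 12.7-fold higher in ECs (log2 fold change 3.66, SE 0.22, FDR = 1.23e-15). Cx3cl1 was at 17.2, 27.4, 22.99 and 26.5 CPM in Sham ECs and at 0.765, 5.30, 2.66 and 5.31 CPM in Sham fibroblasts, 6.62-fold higher in ECs (log2 fold change 2.73, SE 0.44, FDR = 2.69e-06).

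The fibroblast ligands showed the opposite order. Cxcl1 was at 145, 46.8, 25.1 and 76.4 CPM in Sham fibroblasts and at 9.13, 17.1, 5.21 and 3.48 CPM in Sham ECs, 8.22-fold lower in ECs (log2 fold change -3.04, SE 0.63, FDR = 0.000197). Ccl2, the main monocyte attractant, was at 5.87, 22.1, 9.75 and 29.1 CPM in Sham fibroblasts and at 0.365, 2.13, 1.23 and 1.303 CPM in Sham ECs, 12.6-fold lower in ECs (log2 fold change -3.65, SE 1.02, FDR = 0.00451). Every Sham fibroblast library exceeded every Sham EC library for both genes. With sheet run as a term the Ccl2 difference no longer passed (log2 fold change -2.21, FDR = 0.0945). Ccl7 gave 31, 55, 29 and 133 counts in Sham fibroblasts against 1, 3, 0 and 0 in Sham ECs (FDR = 6.97e-07). Ccl11 gave 24, 12, 10 and 36 counts against 0, 0, 1 and 0 (FDR = 2.66e-05). Sham EC levels of both genes therefore sat at or under the floor, and no fold is given. Cxcl2 and Cxcl5 did not pass between Sham ECs and fibroblasts (FDR = 0.422 and 0.113).

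Sham cardiomyocyte preparations carried Cxcl12 at 208, 209, 178 and 179 CPM, between the levels of the other populations. This was 4.33-fold lower than in Sham ECs (log2 fold change -2.11, SE 0.21, FDR = 3.39e-11) and 2.93-fold higher than in Sham fibroblasts (log2 fold change 1.55, SE 0.21, FDR = 6.89e-08), with no overlap in either case. EC markers in the same 4 libraries summed to 1541 to 2146 CPM, against 9204 to 10000 CPM in Sham ECs; the part of these cells in the cardiomyocyte level was not tested. In all, 4 members passed between Sham cardiomyocytes and ECs, where 52.9% of genes did, and 4 passed between Sham cardiomyocytes and fibroblasts, where 47.3% did. Against ECs, Cx3cl1 was 5.78-fold lower in cardiomyocytes (log2 fold change -2.53, SE 0.48, FDR = 2.36e-05), while Ccl7 (4, 4, 3 and 5 counts) and Ccl11 (5, 3, 1 and 7 counts) were higher (FDR = 0.0262 and 0.00196). The Ccl7 call was lost without Sham cardiomyocyte replicate 4, Sham EC replicate 3 or Sham EC replicate 4 (FDR = 0.0545, 0.0759 and 0.0598) and with no filter on low counts (FDR = 0.0559). Against fibroblasts, cardiomyocytes were lower in Cxcl1 (11.4-fold, log2 fold change -3.52, SE 0.70, FDR = 0.00011) and in Ccl7 (log2 fold change -2.65, SE 0.65, FDR = 0.001). Ccl2 was lower too, at 0, 2, 4 and 0 counts in cardiomyocytes (FDR = 0.00632). With sheet run as a term neither Ccl7 nor Ccl2 passed (FDR = 0.0819 and 0.156).

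**Figure D1:**
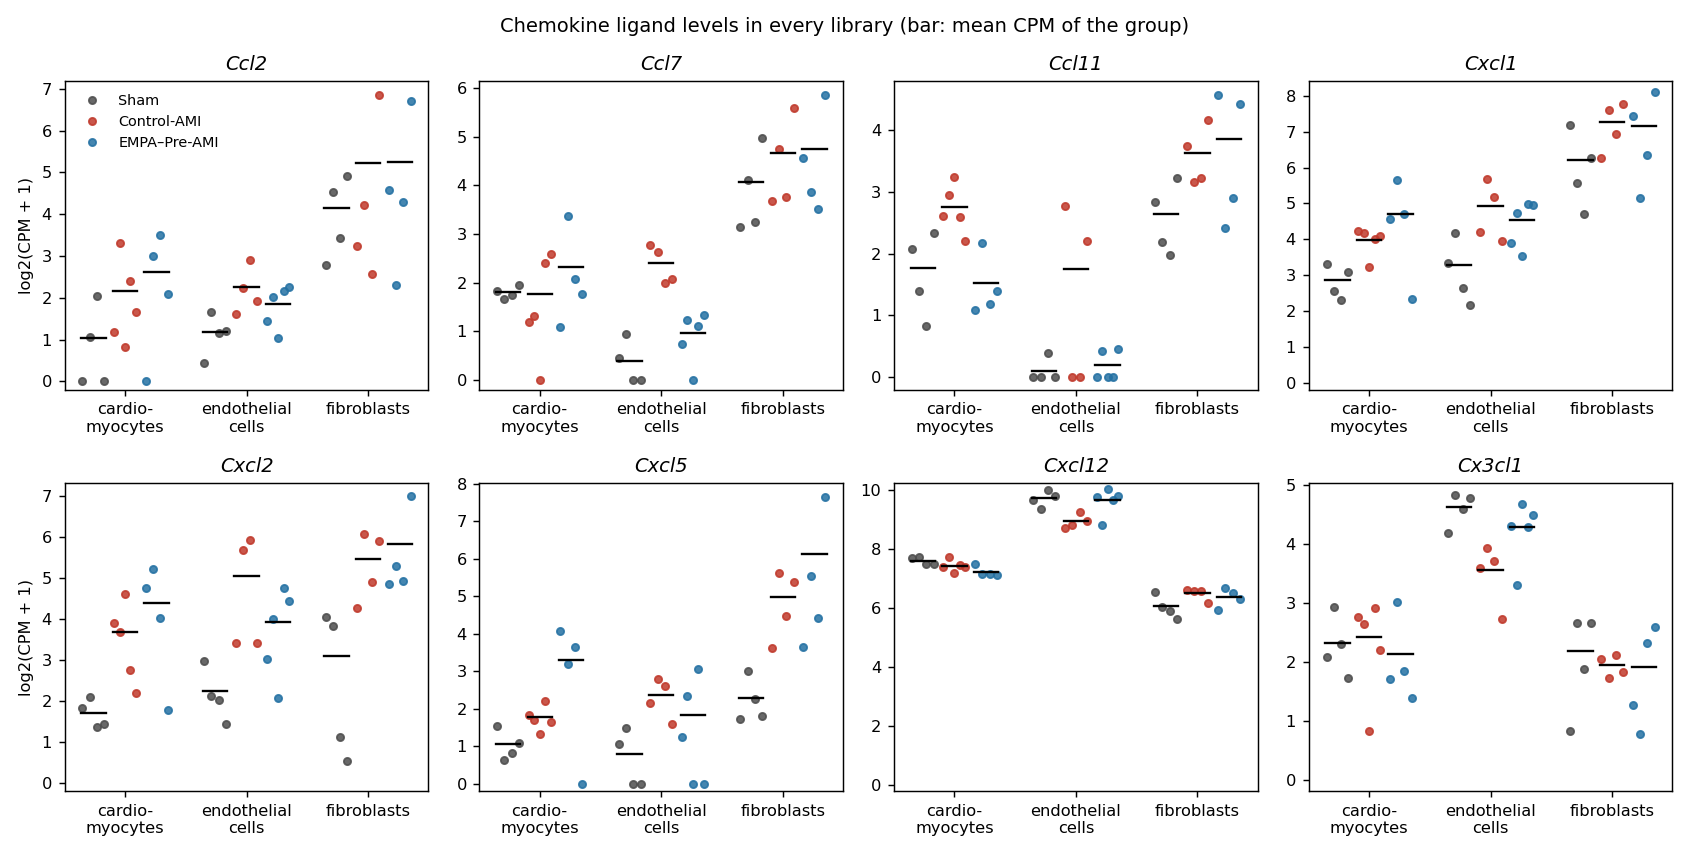
Level of each ligand as log2(CPM + 1) in all 38 libraries, grouped by population on the x axis and coloured by treatment group; each point is a library and each bar the mean CPM of its group on the same scale. Cxcl12 and Cx3cl1 are highest in ECs, where the Control-AMI points lie under the Sham points, and the other 6 ligands reach their highest points in fibroblasts.

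Ordered by mean level over the 9 groups of population and treatment, a fibroblast group stood first for 6 ligands and an EC group for Cxcl12 and Cx3cl1. Neighbouring groups in these orders overlapped at all but 3 places, leaving aside Ccl11 groups whose libraries all held 3 counts or fewer. The breaks without overlap came between Sham fibroblasts and Control-AMI ECs for Ccl7 (7.91 to 30.7 against 3.00 to 5.82 CPM) and at both ends of the cardiomyocyte groups for Cxcl12, below Control-AMI ECs (422 to 604 against 178 to 209 CPM in Sham cardiomyocytes) and above Control-AMI fibroblasts (137 to 180 CPM in EMPA–Pre-AMI cardiomyocytes against 70.9 to 97.99 CPM).

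The neutrophil attractants Cxcl1 and Cxcl2 lie close together on chromosome 5, with Cxcl5 at a lower coordinate. In GRCm39 Cxcl5 spans chr5:90907186-90909483, Cxcl1 chr5:91039094-91040974 and Cxcl2 chr5:91051730-91053797, all on the plus strand. RefSeq promoter sequences (250 bases upstream of the RefSeq start, from the GRCm38.p6 table, placed in GRCm39 by exact match) were given for 4 members, Cxcl1, Cxcl2, Cxcl12 and Cx3cl1. The Cxcl12 window (chr6:117145246-117145495) lay inside the annotated gene, which starts at 117144945. The Cx3cl1 window (chr8:95498558-95498807) lay mostly past the annotated gene start at 95498637. These windows therefore do not stand for the sequence upstream of the annotated starts. A kappaB motif, the sequence bound by NF-kappaB, was present in the Cxcl1 and Cxcl2 windows and in 7.25% of 32851 promoters of the same length, searched on both strands. In each window the search matched on both strands at overlapping positions, and the matches are shown as a single run. Both stretches are printed because the levels of these ligands are compared below, with the motif in capitals.
Cxcl1, chr5:91039023-91039052, plus strand: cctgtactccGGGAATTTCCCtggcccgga
Cxcl2, chr5:91051651-91051680, plus strand: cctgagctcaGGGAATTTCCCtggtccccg
The Cxcl1 motif began 71 bases and the Cxcl2 motif 97 bases before the RefSeq start. The same search found no AP-1 motif (TGANTCA, in 6.75% of promoters) in any of the 4 windows, TATAAA (12.4% of promoters) in that of Cx3cl1 and ACGTG, the core of the hypoxia response element (16.6% of promoters), in that of Cxcl1. Such a match is a string of letters in a window and not a measured binding site.

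In ECs Cxcl2 was higher in all 4 Control-AMI libraries than in any Sham library, but its increase fell just short of the threshold. Cxcl2 was at 6.94, 3.35, 3.06 and 1.74 CPM in Sham ECs, at 9.60, 50.6, 59.6 and 9.61 CPM in Control-AMI ECs, and at 7.15, 14.9, 3.19, 25.9 and 20.5 CPM in EMPA–Pre-AMI ECs. Control-AMI replicates 2 and 3 stood apart from replicates 1 and 4, and the EMPA–Pre-AMI libraries overlapped both other groups. The log2 fold change of Control-AMI against Sham was 3.04 (SE 0.83, 95% interval 1.21 to 4.86, FDR = 0.0543), where 6.56% of 10438 genes passed and 6.37% stood higher without overlap. Leaving out a single library brought the increase past the threshold in 3 cases, Control-AMI replicate 1 (FDR = 0.0387), Control-AMI replicate 4 (FDR = 0.046) and EMPA–Pre-AMI replicate 3 (FDR = 0.0404). It also passed with DESeq2 (FDR = 0.00226) and in edgeR without robust estimation (FDR = 0.00779).

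Among EC libraries, sheet run 4 held only Control-AMI replicates 1 and 4. A sheet run term therefore leaves the Control-AMI contrasts to replicates 2 and 3, the high Cxcl2 libraries. The subset of sheet run 2 keeps the same Control-AMI libraries. With sheet run as a term the EC log2 fold change of Cxcl2 rose to 4.29 (FDR = 2.85e-06). Among the libraries of sheet run 2 (Sham replicates 2, 3 and 4, Control-AMI replicates 2 and 3, EMPA–Pre-AMI replicates 1, 2 and 3) it was 4.27 (FDR = 0.000702), and EMPA–Pre-AMI was then below Control-AMI by a log2 fold change of -2.69 (FDR = 0.0415). Over all libraries the difference of EMPA–Pre-AMI from Control-AMI was -1.14 (SE 0.68, 95% interval -2.63 to 0.34, FDR = 0.578) and did not pass.

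Cxcl1 showed a smaller increase in Control-AMI ECs, which also did not pass. Its level was 9.13, 17.1, 5.21 and 3.48 CPM in Sham, 17.5, 50.6, 35.6 and 14.4 CPM in Control-AMI, and 14.0, 25.8, 10.6, 30.9 and 30.1 CPM in EMPA–Pre-AMI libraries, so that Control-AMI and Sham overlapped through Sham replicate 2. The log2 fold change of Control-AMI against Sham was 1.70 (SE 0.53, 95% interval 0.54 to 2.86, FDR = 0.083). Without Sham replicate 2 it was 2.26 (FDR = 0.0273), and it passed with DESeq2 (FDR = 0.00399), in edgeR without robust estimation (FDR = 0.0312) and with sheet run as a term (FDR = 0.0142). The last of these fits again rests on Control-AMI replicates 2 and 3. Between EMPA–Pre-AMI and Control-AMI ECs Cxcl1 did not pass in any fit. Left-out libraries gave log2 fold changes of -0.61 to -0.002 (FDR = 0.767 to 0.999), and the other alternatives -1.36 to -0.38 (FDR = 0.645 to 0.914). Cxcl5 had few counts in ECs, with 3, 6, 0 and 0 in Sham and 12, 16, 12 and 5 in Control-AMI. The increase did not pass (FDR = 0.218) and its size was imprecise. It had log2 fold changes of 1.94 to 3.33 in the 11 left-out fits that tested it (FDR = 0.149 to 0.415).

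Fibroblast marker genes were also higher in the EC libraries of Control-AMI hearts. The summed fibroblast markers were at 416 to 1097 CPM in Sham, 5547, 1487, 1648 and 3099 CPM in Control-AMI, and 367 to 734 CPM in EMPA–Pre-AMI ECs. Of the 10 markers 9 were tested and 8 were higher in Control-AMI than in Sham, with Tcf21 under the filter and none at 0 in every library of a group. Ligands and markers are given here as a share of their mean in Control-AMI fibroblasts. In Control-AMI EC replicates 2 and 3 the fibroblast markers stood at 9.87% and 10.9% of that mean, Cxcl2 stood at 117% and 138%, Cxcl1 at 33.2% and 23.3%, and Cxcl5 at 19.4% and 16.8% of theirs. In replicates 1 and 4 the markers stood at 36.8% and 20.6%, with Cxcl2 at 22.2% in each, below the markers in replicate 1 and slightly above them in replicate 4, and with Cxcl1 at 11.45% and 9.46% and Cxcl5 at 11.38% and 6.53%, below them in both. Neutrophil markers summed to 126 CPM in Control-AMI EC replicate 3 and to 7.45 to 28.8 CPM in the other 3, with Ly6g and Ngp at 0 in all 4, and leukocyte markers to 381 CPM in replicate 3 and to 16.4 to 34.6 CPM in the others. S100a8 and S100a9 had log2 fold changes of 4.63 and 4.55 in Control-AMI against Sham ECs and did not pass (FDR = 0.166 and 0.159). The part of fibroblasts, neutrophils and other leukocytes in the EC levels of Cxcl1, Cxcl2 and Cxcl5 was not tested.

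**Figure D2:**
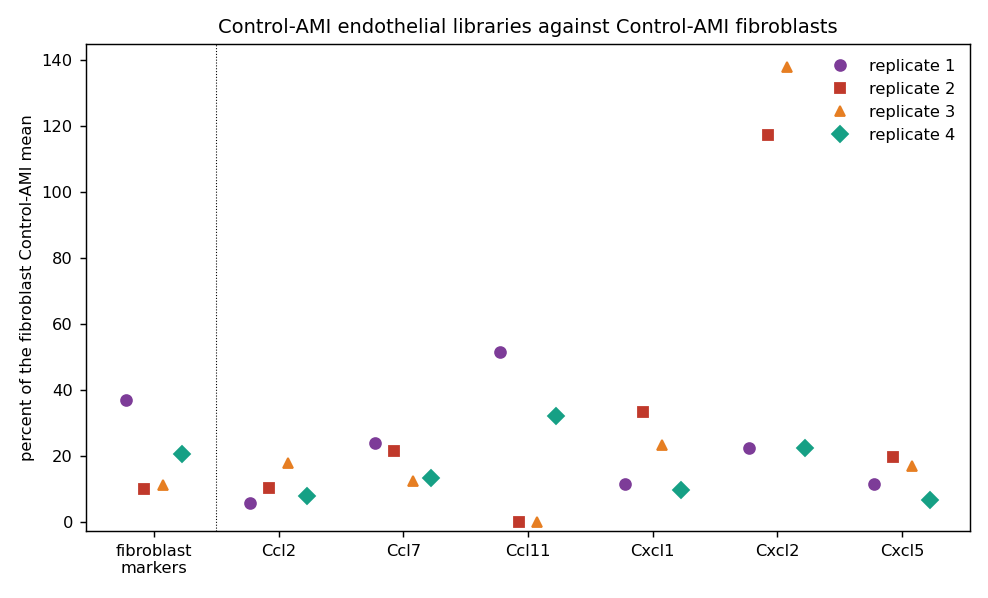
Fibroblast markers (left) and 6 ligands in the 4 Control-AMI EC libraries, each as a percentage of its mean in Control-AMI fibroblasts on the y axis; symbols mark the replicates. Cxcl2 reaches 117% and 138% in replicates 2 and 3, where the markers stand at 9.87% and 10.9%, and Ccl11 is above 0 in replicates 1 and 4, where the markers are highest.

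In fibroblasts Cxcl5 was the 1 member of 8 that passed between an AMI group and Sham, with wide errors. Cxcl5 was at 2.30, 7.07, 3.84 and 2.54 CPM in Sham, at 11.2, 48.8, 21.5 and 41.1 CPM in Control-AMI, and at 11.6, 45.9, 20.5 and 200 CPM in EMPA–Pre-AMI fibroblasts. Every library of the 2 AMI groups exceeded every Sham library. The increase passed in EMPA–Pre-AMI against Sham (17.7-fold, log2 fold change 4.14, SE 0.98, FDR = 0.0407), where 5.11% of 10691 genes passed (3.65% with higher levels) and 6.77% stood higher without overlap, and not in Control-AMI against Sham (log2 fold change 2.96, SE 0.97, 95% interval 0.81 to 5.11, FDR = 0.128), where 4.16% passed. In the latter comparison 0 of 8 members passed, 3 had an unadjusted p below 0.05, as did 19.2% of genes, and DESeq2 called 1. The direct comparison of these AMI groups gave no call for Cxcl5 (log2 fold change 1.18, SE 0.82, 95% interval -0.64 to 3.01, FDR = 1), and without EMPA–Pre-AMI replicate 4 its sign turned (-0.23).

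Both Cxcl5 results depended on single libraries. The EMPA–Pre-AMI call was lost without any of the 4 Sham libraries (FDR = 0.0742 to 0.118), without Control-AMI replicate 2, 3 or 4 (FDR = 0.055, 0.0624 and 0.0539) and without EMPA–Pre-AMI replicate 2 (FDR = 0.0682). Without EMPA–Pre-AMI replicate 4, the library at 200 CPM, it fell to a log2 fold change of 2.73 and still passed (FDR = 0.0325). Mesothelial markers summed to 31.4 to 66.6 CPM in Sham, 19.1 to 75.0 CPM in Control-AMI and 45.7 to 132 CPM in EMPA–Pre-AMI fibroblasts, highest in that same replicate 4. Of 6 tested, Krt18, an epithelial keratin, rose in EMPA–Pre-AMI against Sham (log2 fold change 2.39, FDR = 0.0309). The part of such cells in the Cxcl5 level was not tested. Without EMPA–Pre-AMI replicate 4 the Control-AMI increase passed (log2 fold change 2.96, FDR = 0.0121), as it did with DESeq2 (FDR = 0.0123) and with sheet run as a term (log2 fold change 3.84, FDR = 0.0233).

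Cxcl2 was at 15.6, 13.3, 1.18 and 0.461 CPM in Sham, at 18.3, 66.7, 28.8 and 59.01 CPM in Control-AMI, and at 27.8, 38.4, 29.5 and 127 CPM in EMPA–Pre-AMI fibroblasts. Neither AMI group overlapped Sham, and neither difference passed (log2 fold change 2.49, SE 0.91, FDR = 0.169, and 2.86, SE 0.92, FDR = 0.11). Control-AMI stood above Sham without overlap for 7.02% of all fibroblast genes. Leukocyte markers summed to 408 CPM in Sham fibroblast replicate 2 and to 7.15 to 24.8 CPM in the other Sham libraries. They summed to 12.8 to 20.1 CPM in Control-AMI and 12.2 to 25.4 CPM in EMPA–Pre-AMI fibroblasts. The part of leukocytes in the Cxcl2 and Cxcl5 levels was not tested. Cxcl1 was at 76.6, 195, 123 and 216 CPM in Control-AMI and at 171, 34.5, 80.9 and 277 CPM in EMPA–Pre-AMI fibroblasts, overlapping the Sham range of 25.1 to 145 CPM (log2 fold change of Control-AMI against Sham 1.03, SE 0.67, FDR = 0.445).

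**Figure D3:**
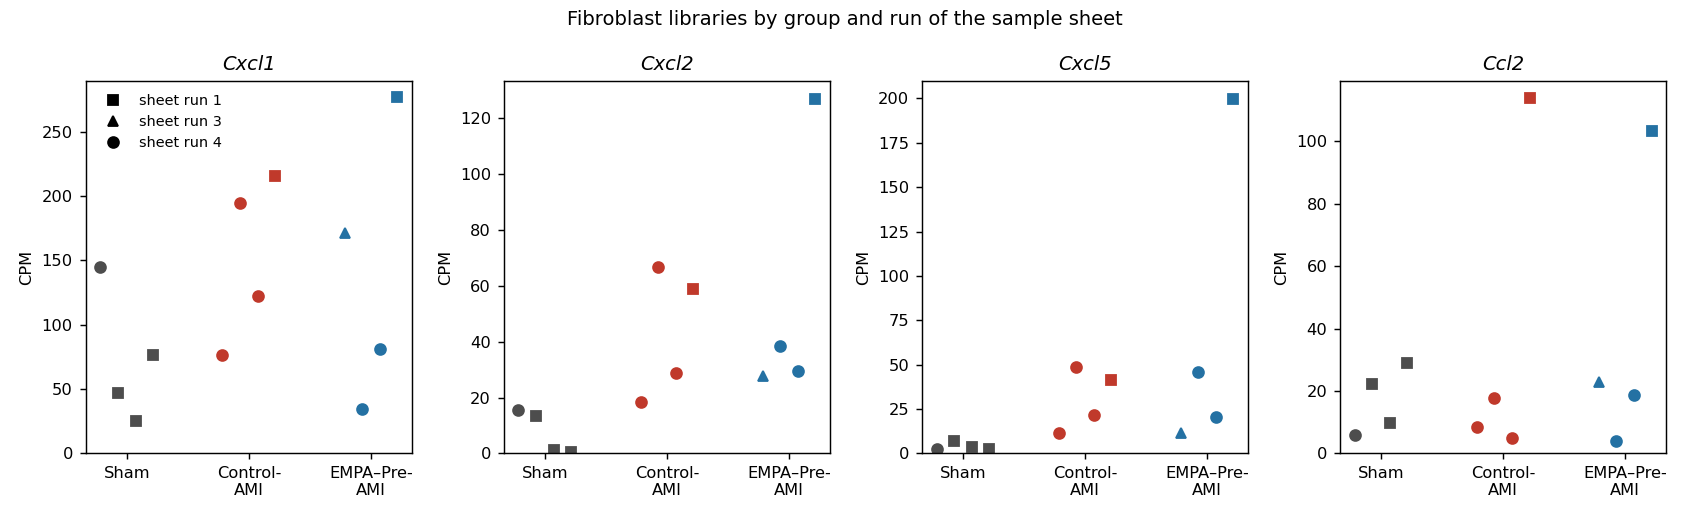
Level in CPM of Cxcl1, Cxcl2, Cxcl5 and Ccl2 in the 12 fibroblast libraries by treatment group, with symbols for the run of the sample sheet. Squares mark run 1, which held 3 Sham libraries and the single highest library of each AMI group for Ccl2 and Cxcl1.

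In cardiomyocyte preparations 3 members, Cxcl1, Cxcl2 and Cxcl12, passed the filter on low counts and none passed the test. At an unadjusted p below 0.05 there were 2 members in Control-AMI against Sham, 0 in EMPA–Pre-AMI against Control-AMI and 2 in EMPA–Pre-AMI against Sham, beside 2.72%, 25% and 18.2% of all genes, and DESeq2 called 0, 0 and 2. Cxcl2 was at 2.57, 3.28, 1.56 and 1.72 CPM in Sham, at 14.0, 11.9, 23.6, 5.75 and 3.61 CPM in Control-AMI, and at 25.9, 36.3, 15.4 and 2.42 CPM in EMPA–Pre-AMI libraries. Control-AMI did not overlap Sham, whereas EMPA–Pre-AMI replicate 4 lay within the Sham range. The log2 fold change was 2.30 (SE 0.69, FDR = 0.748) in Control-AMI and 3.11 (SE 0.70, FDR = 0.0689) in EMPA–Pre-AMI, each against Sham, where 0.0655% and 0.338% of 9167 genes passed; between the AMI groups 0.0218% did. Control-AMI stood above Sham without overlap for 1.22% of genes. Cxcl1 was at 3.91 to 9.0 CPM in Sham, 8.38 to 17.9 CPM in Control-AMI and 4.04 to 49.2 CPM in EMPA–Pre-AMI libraries. Its log2 fold change against Sham was 1.23 in Control-AMI (SE 0.51, FDR = 1), and in EMPA–Pre-AMI it was 2.04 (SE 0.53, FDR = 0.105). Without EMPA–Pre-AMI replicate 4 both increases in EMPA–Pre-AMI passed (FDR = 0.00146 for Cxcl2 and 0.00161 for Cxcl1), and Cxcl1 also passed against Control-AMI (log2 fold change 1.18, FDR = 0.0293). Without Control-AMI replicate 3 the Cxcl2 increase of EMPA–Pre-AMI over Sham passed as well (FDR = 0.0477). That replicate 4 was the EMPA–Pre-AMI library of sheet run 4, which held all Sham and Control-AMI cardiomyocyte libraries; with sheet run as a term the signs of Cxcl1 and Cxcl2 against Control-AMI turned (log2 fold changes -1.89 and -2.26, FDR = 0.999 for both). Run and group can therefore hardly be told apart here. Neutrophil markers summed to 3.28 to 6.89 CPM in Sham, 17.2 to 52.5 CPM in Control-AMI and 16.2 to 125 CPM in EMPA–Pre-AMI cardiomyocyte libraries, with Ngp at 0 in every cardiomyocyte library and Ly6g and Camp at 0 in Sham and EMPA–Pre-AMI. S100a8 was higher than in Sham in Control-AMI (log2 fold change 3.27, FDR = 0.0301) and in EMPA–Pre-AMI (4.08, FDR = 0.00154). S100a9 stood above Sham without overlap in both and did not pass. Csf3r, of the same list and under the filter, went the other way in Control-AMI. Its mean was 0.573 CPM there against 1.70 CPM in Sham, without overlap and near the floor, and 1.64 CPM in EMPA–Pre-AMI. The part of neutrophils in the Cxcl1 and Cxcl2 levels was not tested.

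The ligands with the highest EC levels moved the other way. In Control-AMI ECs Cxcl12 and Cx3cl1 fell relative to Sham, the 2 members of 5 tested that passed, where 2.47% of genes passed with lower levels and 4.09% with higher ones, and 4.83% stood lower without overlap. Cxcl12 was at 799, 655, 1012 and 886 CPM in Sham, 422, 452, 604 and 497 CPM in Control-AMI, and 860, 451, 1038, 808 and 893 CPM in EMPA–Pre-AMI ECs. Control-AMI lay wholly below Sham, and 4 of 5 EMPA–Pre-AMI libraries lay above Control-AMI. The decrease was 1.73-fold (log2 fold change -0.79, SE 0.20, FDR = 0.0207). Cx3cl1 was at 17.2, 27.4, 22.99 and 26.5 CPM in Sham, 11.1, 14.1, 12.0 and 5.61 CPM in Control-AMI, and 18.7, 8.83, 24.4, 18.5 and 21.3 CPM in EMPA–Pre-AMI ECs, a 2.23-fold decrease in Control-AMI (log2 fold change -1.15, SE 0.30, FDR = 0.0206).

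Cxcl12 was higher in EMPA–Pre-AMI than in Control-AMI ECs (1.67-fold, log2 fold change 0.74, SE 0.19, FDR = 0.042), where 2.63% of genes passed and 0.345% passed with higher levels, and Cx3cl1 did not pass (log2 fold change 0.80, SE 0.29, 95% interval 0.20 to 1.39, FDR = 0.199). The lowest EMPA–Pre-AMI library for both was replicate 2. Without it the values for Cx3cl1 were 0.97 (FDR = 0.0384) and for Cxcl12 0.89 (FDR = 0.00254). Between EMPA–Pre-AMI and Sham 0 of 5 members passed, with edgeR or DESeq2, where 2.71% of genes did in edgeR; 2 members, Cxcl1 and Cxcl2, had an unadjusted p below 0.05, as did 14.1% of genes. Both ligands highest in ECs were near their Sham levels (Cxcl12 log2 fold change -0.05, 95% interval -0.45 to 0.35; Cx3cl1 -0.36, 95% interval -0.92 to 0.20).

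All of these calls stood near the threshold. The Cxcl12 decrease was no longer called without Sham replicate 3 or 4 (FDR = 0.0963 and 0.0691) or Control-AMI replicate 1, 2 or 4 (FDR = 0.0786, 0.0574 and 0.0569), and the Cx3cl1 decrease without Sham replicate 2, 3 or 4 (FDR = 0.0634, 0.0561 and 0.0674) or Control-AMI replicate 1 or 4 (FDR = 0.0505 and 0.0713). The Cxcl12 difference between EMPA–Pre-AMI and Control-AMI was lost in 10 of 13 fits that left out 1 library, the fits without Sham replicate 2, Control-AMI replicate 3 or EMPA–Pre-AMI replicate 2 being the exceptions, and its FDR reached 0.252 without Control-AMI replicate 1. With sheet run as a term the log2 fold changes were -0.68 for Cxcl12 and -0.88 for Cx3cl1 in Control-AMI against Sham (FDR = 0.238 and 0.247) and 0.62 for Cxcl12 in EMPA–Pre-AMI against Control-AMI (FDR = 0.805). Within sheet run 2 they were -0.70, -0.97 and 0.58 (FDR = 0.362, 0.2 and 0.998). Both settings leave the Control-AMI contrasts to replicates 2 and 3.

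The EC markers moved with these ligands. Their summed level was 9204 to 10000 CPM in Sham, 4834 to 6557 CPM in Control-AMI and 6616 to 9443 CPM in EMPA–Pre-AMI ECs, lowest among the EMPA–Pre-AMI libraries in replicate 2. Of the 11 markers 3 were lower in Control-AMI than in Sham (Kdr, the main VEGF receptor, Fabp4, a fatty acid binding protein, and Emcn, a surface mucin), with a median log2 fold change of -0.56 over the list and of -0.02 over all genes tested. Per 1000 CPM of EC markers, Cxcl12 was at 81.8, 70.9, 101 and 96.2 in Sham, 87.2, 69.0, 92.6 and 82.6 in Control-AMI, and 91.1, 68.2, 110, 98.2 and 99.2 in EMPA–Pre-AMI ECs, and the groups overlapped. On this scale, chosen after the data were seen, Control-AMI and Sham differed by -0.07 in mean log2 (exact permutation test, two-sided, p = 0.6, n = 4 and 4), and EMPA–Pre-AMI and Control-AMI by 0.16 (exact permutation p = 0.333, n = 5 and 4). For Cx3cl1 the same ratio was 1.76 to 2.97 in Sham, 0.933 to 2.29 in Control-AMI and 1.33 to 2.59 in EMPA–Pre-AMI ECs, with mean log2 differences of -0.51 (exact permutation p = 0.171) and 0.27 (exact permutation p = 0.429). The smallest p that 4 against 4 libraries allow is 0.0286, which the unscaled CPM of both ligands reached between Control-AMI and Sham. Between EMPA–Pre-AMI and Control-AMI the unscaled CPM gave an exact permutation p of 0.0635 for Cxcl12 and 0.0952 for Cx3cl1.

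Other marker lists moved in the same EC libraries. Erythroid markers summed to 9.85 to 111 CPM in Sham, 151 to 635 CPM in Control-AMI and 195 to 815 CPM in EMPA–Pre-AMI ECs. Of 4 tested, 3 were higher in Control-AMI than in Sham (the globins Hba-a1, Hba-a2 and Hbb-bt, FDR = 0.024, 0.0444 and 0.0264) and 1 in EMPA–Pre-AMI (Hba-a1, FDR = 0.0424). Mesothelial markers summed to 34.8 to 51.8 CPM in Sham, 58.2 to 82.3 CPM in Control-AMI and 60.5 to 109 CPM in EMPA–Pre-AMI ECs. Most of this sum was Wt1, at a mean of 38.4 of 43.6 CPM in Sham ECs. Wt1 was 10.3-fold higher in Sham ECs than in Sham fibroblasts (FDR = 4.06e-12), whereas Msln, Upk3b, Krt19 and Upk1b were lower. In ECs the sum is therefore no measure of mesothelial cells. Of 2 tested, Upk3b was higher in Control-AMI (FDR = 0.0115) and Wt1 in EMPA–Pre-AMI (FDR = 0.0426), each against Sham. Their part in the ligand levels was not tested.

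**Figure D4:**
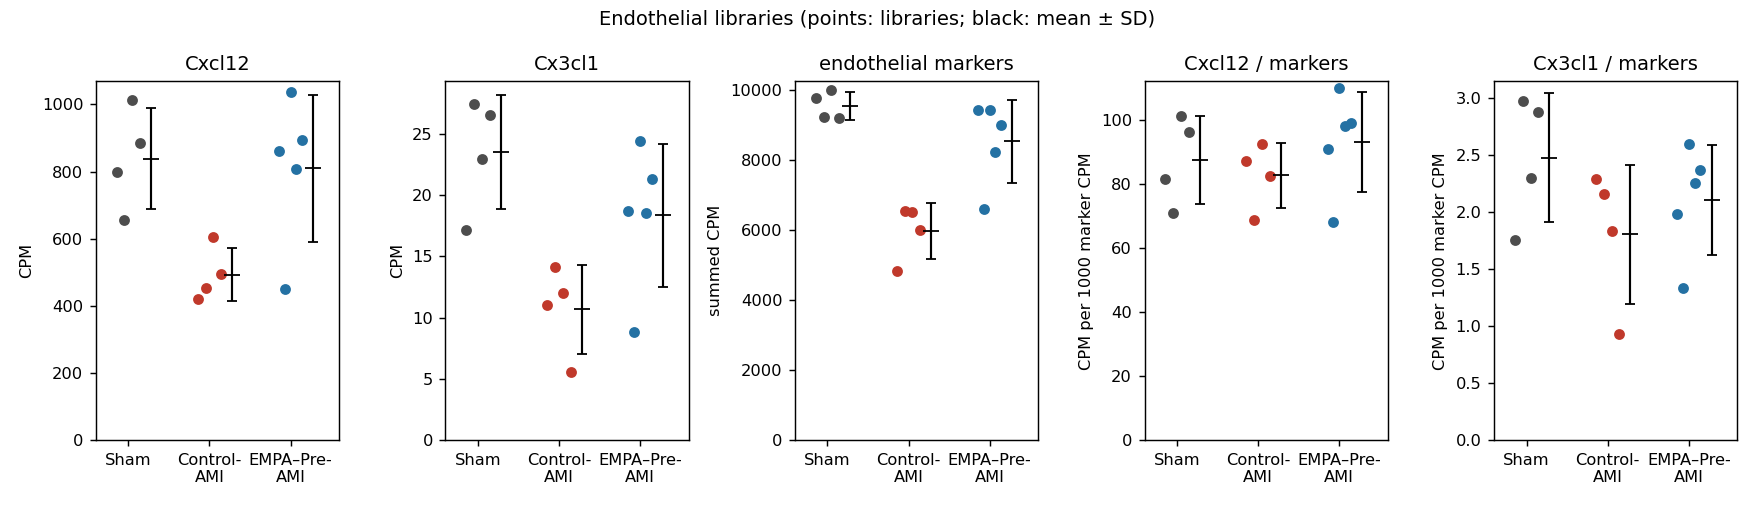
The 13 EC libraries by treatment group: CPM of Cxcl12 and of Cx3cl1, summed CPM of 11 EC markers, and each ligand per 1000 CPM of those markers; points are libraries and black marks are mean ± SD. The Control-AMI points lie below the Sham points in the first 3 panels, and the groups overlap in the last 2.

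The decrease of Cxcl12 after AMI was not shared by fibroblasts. Fibroblast Cxcl12 was at 91.8, 64.8, 59.1 and 48.7 CPM in Sham, 97.99, 93.7, 94.6 and 70.9 CPM in Control-AMI, and 59.6, 101, 89.9 and 79.2 CPM in EMPA–Pre-AMI libraries, with overlapping groups (Control-AMI against Sham log2 fold change 0.42, SE 0.21, 95% interval -0.03 to 0.87, FDR = 0.295). The difference between the EC and fibroblast responses itself passed (-1.20 on the log2 scale, SE 0.29, FDR = 0.0118), the only member of 8 to pass, where 3.22% of 12085 genes did. Left-out libraries moved it between -1.40 and -1.08, all with an FDR of at most 0.0445, and with the replicate block its FDR was 0.0508. Relative to EC markers the EC part of this difference was -0.07 in mean log2 (exact permutation p = 0.6). From Sham to Control-AMI ECs the summed EC markers moved by -0.68 and the fibroblast markers by 2.00 in mean log2. The part of cell makeup in the difference was not tested. In the differences of the AMI response that involve cardiomyocytes no member passed in edgeR (3 and 1 had an unadjusted p below 0.05, beside 9.09% and 8.47% of genes), where 1.51% (ECs minus cardiomyocytes) and 0.331% (fibroblasts minus cardiomyocytes) of genes did. In cardiomyocytes Cxcl12 was at 178 to 209 CPM in Sham, 145 to 211 CPM in Control-AMI and 137 to 180 CPM in EMPA–Pre-AMI libraries, with no call in any comparison (log2 fold changes -0.15, -0.16 and -0.31). Cx3cl1 in fibroblasts stayed at 0.718 to 5.31 CPM over all 12 libraries, with no call (Control-AMI against Sham log2 fold change -0.33, SE 0.61, FDR = 0.808).

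**Figure D5:**
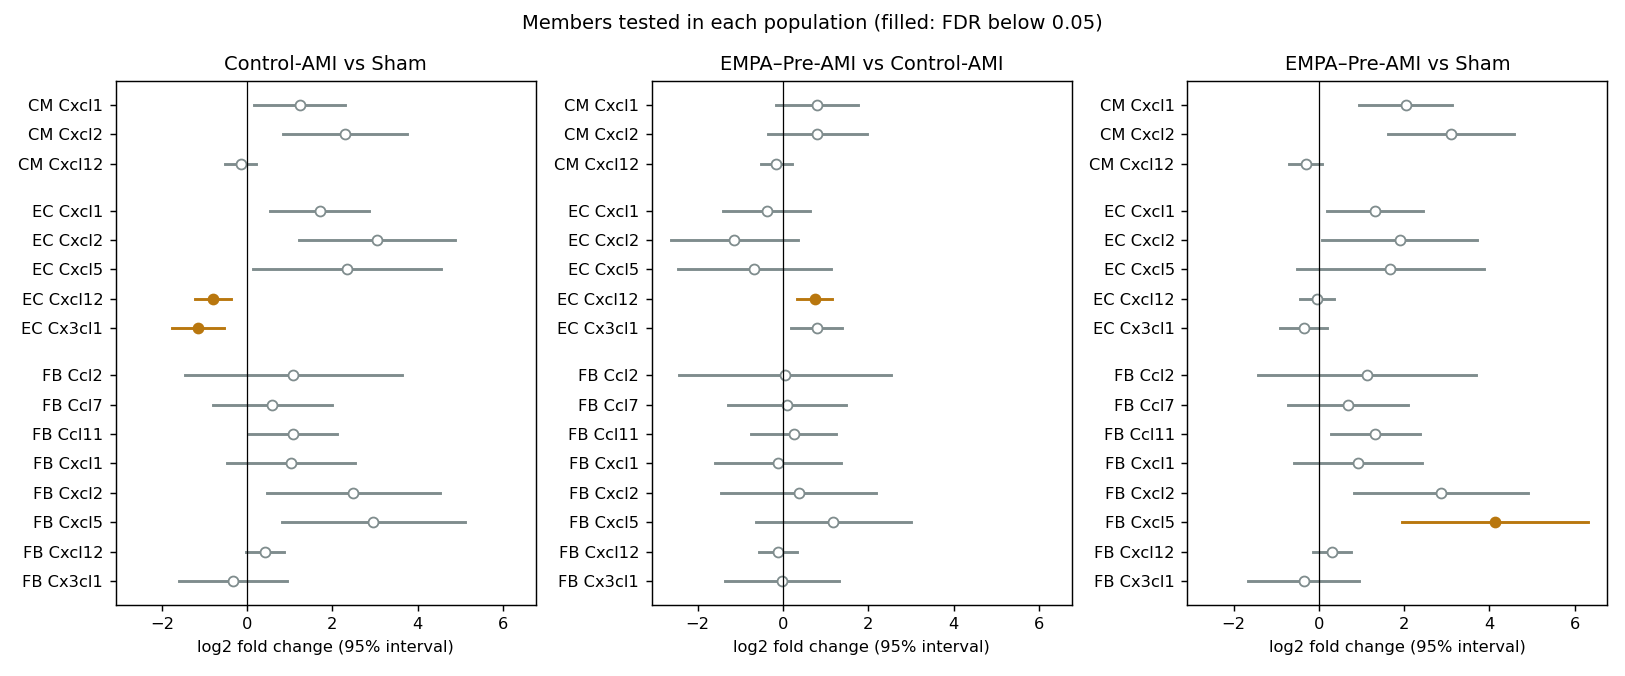
Log2 fold changes with 95% intervals of the members that passed the low-count filter in cardiomyocytes (CM), ECs (EC) and fibroblasts (FB), for the 3 comparisons of treatment groups; filled symbols have an FDR below 0.05. Filled symbols are EC Cxcl12 in the first 2 comparisons, EC Cx3cl1 in the first and fibroblast Cxcl5 in the third.

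The CC ligands Ccl2, Ccl7 and Ccl11 lie close together on chromosome 11 (GRCm39 chr11:81926397-81928279, chr11:81936532-81938351 and chr11:81948618-81953781, plus strand). They lay under the low-count filter in the EC and cardiomyocyte fits and were tested between treatment groups in fibroblasts only, where none passed. In fibroblasts Ccl2 was at 5.87, 22.1, 9.75 and 29.1 CPM in Sham, 8.36, 17.7, 4.96 and 114 CPM in Control-AMI, and 22.9, 3.95, 18.7 and 103 CPM in EMPA–Pre-AMI libraries. The single high library of each AMI group was replicate 4, and the other 3 of each group lay within or below the Sham range of 5.87 to 29.1 CPM. The log2 fold change of Control-AMI against Sham was 1.08 (SE 1.14, 95% interval -1.47 to 3.63, FDR = 0.653) with Control-AMI replicate 4 and -0.69 (FDR = 0.736) without it. Within sheet run 1, where that library faced Sham replicates 2, 3 and 4, it was 2.48, a value that rests on that single library. The same 2 libraries were the highest of their groups for Ccl7 in fibroblasts, at 47.4 and 56.9 CPM against 7.91 to 30.7 CPM in Sham (Control-AMI log2 fold change 0.59, SE 0.64, FDR = 0.658). Mural cell markers summed to 4227 CPM in Control-AMI replicate 4 and to 633 to 1024 CPM in the other Control-AMI fibroblast libraries. They summed to 2256 CPM in EMPA–Pre-AMI replicate 4, to 1105 to 1928 CPM in the other EMPA–Pre-AMI libraries and to 713 to 2017 CPM in Sham; their part in the Ccl2 level was not tested.

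Ccl11 in fibroblasts was at 6.12, 3.53, 2.95 and 8.31 CPM in Sham, 12.3, 7.96, 8.27 and 16.7 CPM in Control-AMI, and 22.6, 4.31, 6.47 and 20.3 CPM in EMPA–Pre-AMI libraries. Against Sham its log2 fold change was 1.07 in Control-AMI (SE 0.49, FDR = 0.243), where it passed with sheet run as a term (1.39, FDR = 0.0486), and 1.33 in EMPA–Pre-AMI (SE 0.49, FDR = 0.137), where it passed with the replicate block (FDR = 0.0343). In ECs Ccl11 gave 20, 0, 0 and 9 counts in Control-AMI, and at most 1 count in any Sham or EMPA–Pre-AMI library. The libraries with counts were replicates 1 and 4, which had the highest fibroblast marker sums. The difference between the EC and fibroblast contrasts of EMPA–Pre-AMI with Control-AMI passed for Ccl11 (FDR = 0.0438), where 2.04% of genes did; its fitted size rests on EC counts near 0. It was lost without EC Control-AMI replicate 1 (FDR = 0.506) or 4 (FDR = 0.101), EC EMPA–Pre-AMI replicate 1, 3 or 4, fibroblast Control-AMI replicate 1, 2 or 3, or fibroblast EMPA–Pre-AMI replicate 1 or 4 (FDR = 0.0635 to 0.111 in these 8), and also with RLE factors, the replicate block and the sheet run term (FDR = 0.0518, 0.168 and 0.0886). No member passed in edgeR in the same differences involving cardiomyocytes (2 and 0 had an unadjusted p below 0.05, beside 16.5% and 15.2% of genes), where 0.993% (ECs minus cardiomyocytes) and 0.00827% (fibroblasts minus cardiomyocytes) of genes did. Ccl7 in ECs gave 1, 3, 0 and 0 counts in Sham, 20, 14, 7 and 8 counts in Control-AMI, and 2, 4, 0, 3 and 4 counts in EMPA–Pre-AMI libraries. Control-AMI stood above all other EC libraries, and the gene lay under the filter of the EC fit; with no filter it was called in Control-AMI against Sham.

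No difference between EMPA–Pre-AMI and Control-AMI fibroblasts was detected for any of the 8 members. In that comparison 0 of 10691 genes passed with edgeR (0%) and 0 with DESeq2, and 170 (1.59%) had an unadjusted p below 0.05, none of them a member. The intervals were wide, from -2.43 to 2.54 on the log2 scale for Ccl2 and from -0.56 to 0.34 for Cxcl12.

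Genes of the chemokine pathway outside the 8 were read from 4 lists. Among 27 other ligands, 9 were tested in ECs and 2 rose in Control-AMI, as did 4.09% of all genes. Cxcl14, a ligand highest in fibroblasts (132 to 164 CPM in Sham fibroblasts), was at 1.84 to 3.91 CPM in Sham ECs. It was at 10.4 to 49.5 CPM in Control-AMI ECs and at 1.90 to 3.74 CPM in EMPA–Pre-AMI ECs (log2 fold changes 3.12, FDR = 0.000515, and -3.33, FDR = 0.000927). Among the EC groups the fibroblast marker sums were also highest in Control-AMI. The part of fibroblast RNA in the EC level of Cxcl14 was not tested. Cxcl10, an interferon-induced ligand of Cxcr3, gave 1 to 3 counts in Sham ECs and rose to 5 to 22 counts in Control-AMI (FDR = 0.0129) and 2 to 20 counts in EMPA–Pre-AMI ECs (FDR = 0.0411). None of 8 tested ligands passed in fibroblasts.

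Among 23 receptors 5 were tested in ECs. Of all EC genes 2.47% passed with lower levels in Control-AMI than in Sham, and 2.71% passed in either direction in EMPA–Pre-AMI against Sham. Cxcr4, the receptor of Cxcl12, was at 17.1 to 29.4 CPM in Sham ECs and fell in Control-AMI ECs by 1.81 on the log2 scale (SE 0.35, FDR = 0.00346), to levels of 3.78 to 11.6 CPM. EMPA–Pre-AMI ECs, at 5.10 to 10.98 CPM, were likewise below Sham (-1.48, SE 0.32, FDR = 0.0103). No receptor of 7 tested passed in fibroblasts.

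Of 13 genes for the binding and cleavage of chemokines, 4 of 12 tested rose in Control-AMI ECs, beside the same 4.09% of all genes, namely the syndecans Sdc2 and Sdc4, which carry the heparan sulfate that holds chemokines, and the metalloproteinases Mmp2 and Mmp14, which can cleave Cxcl12. Mmp2 rose by a log2 fold change of 2.89 (SE 0.63, FDR = 0.0213) and Sdc2 by 2.20 (SE 0.39, FDR = 0.00346); both, with Mmp14, were lower again in EMPA–Pre-AMI ECs. Sham fibroblasts held far more of both than Sham ECs did (Mmp2 451 against 13.1 CPM, Sdc2 292 against 12.0 CPM), and the part of the fibroblast RNA in their EC levels was not tested. In fibroblasts 1 of 13 passed. This was Sdc4, at 37.7 CPM in Sham, which rose by a log2 fold change of 2.28 to 187 CPM in Control-AMI (SE 0.33, FDR = 0.00134) and by 2.50 to 216 CPM in EMPA–Pre-AMI (SE 0.33, FDR = 0.000612).

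Of 22 inducers and regulators of inflammatory chemokines, 5 of 20 tested rose in Control-AMI ECs and 5 in EMPA–Pre-AMI ECs, and 7 of 18 rose in each AMI group of fibroblasts, all against Sham. Of all genes 4.09% and 2.08% rose in these EC comparisons, and 2.99% and 3.65% in those of fibroblasts. The median log2 fold change of the list in Control-AMI fibroblasts was 0.91, beside -0.03 over all genes. In ECs these were Il6, Il1r1, Nfkbia, Cebpb and Socs3 in each group. Nfkbia, the feedback inhibitor of NF-kappaB, was at 932 CPM in Sham ECs. It rose by a log2 fold change of 1.02 to 1918 CPM in Control-AMI (SE 0.20, FDR = 0.00366) and by 1.39 to 2439 CPM in EMPA–Pre-AMI ECs (SE 0.20, FDR = 0.000167). Il6 had 0 counts in all 4 Sham EC libraries, 12 to 44 in Control-AMI and 9 to 45 in EMPA–Pre-AMI (FDR = 0.000714 and 0.000661). In fibroblasts Il6 was at 1.76 CPM in Sham and rose by a log2 fold change of 4.53 in each AMI group, to 42.8 CPM in Control-AMI (SE 0.76, FDR = 0.00691) and 42.3 CPM in EMPA–Pre-AMI (SE 0.77, FDR = 0.00685), beside Socs3, its feedback inhibitor (2.77, SE 0.60, FDR = 0.0273, in Control-AMI), Il1r1, Nfkbiz, and the transcription factors Rel and Cebpb, with Rela in Control-AMI and Nfkb1 in EMPA–Pre-AMI as the other one. No gene of these 4 lists passed in cardiomyocytes. Of all 9167 genes tested there, 0.0655% (Control-AMI) and 0.338% (EMPA–Pre-AMI) passed against Sham, and 0.0218% passed between the AMI groups. None of the inducers passed between EMPA–Pre-AMI and Control-AMI in any population. For that contrast 2.63% of all EC genes and 0 of 10691 fibroblast genes passed. With so few genes passing in cardiomyocytes and fibroblasts, the lack of calls there says little about these lists.

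The genes most like each ligand were ranked by Pearson's r of log2 CPM, centred within each population, over 38 libraries and 12085 genes. The libraries share treatment, sheet run and cell makeup, so these are descriptions with no test. Nfkbia (r = 0.82), Junb (0.81) and Cebpd (0.80) were closest to Cxcl1, Il6 (0.83), Nfkbiz (0.82) and Mt2 (0.81) to Cxcl2, and Timp1 (0.81), Stat3 (0.79) and Cxcl2 (0.78) to Cxcl5. Closest to Cxcl12 were Rsad2 (0.75), Tspan13 (0.74) and Slc26a10 (0.74), and to Cx3cl1 Ppic (0.77), Tspan14 (0.72) and B2m (0.70). For the CC ligands the closest were Slc20a2 (0.73), Btf3 (0.71) and Ctsl (0.70) for Ccl2, Uap1 (0.81), Rhou (0.80) and H6pd (0.80) for Ccl7, and Tbx18 (0.66), Ifi205 (0.65) and Fbxo33 (0.65) for Ccl11.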

How the data were processed

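RNA was prepared with a 3′ kit (QuantSeq FWD) and sequenced on a NextSeq 550. The authors trimmed reads with cutadapt 2.8, quantified them with Salmon against GRCm39 and Ensembl transcripts, and deposited estimated counts per gene, not normalized, for 35682 genes; 35407 identifiers had a symbol in the annotation used here. The estimated counts were rounded to whole numbers. Cardiomyocyte libraries totalled 2031716 to 4509284 counts, EC libraries 1352514 to 2195308 and fibroblast libraries 1946056 to 2821373. Mitochondrial genes took 46.6% to 66.0% of the cardiomyocyte counts. Floors cover counting error only, whereas the intervals of fold changes also hold the spread between libraries.

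Each population was fitted by itself with edgeR 4.0.16 (R 4.3.3; filterByExpr with a minimum count of 10, TMM factors, robust quasi-likelihood test, Benjamini-Hochberg adjustment over all genes tested), with its 3 treatment groups and no covariate. Sham levels between populations, and differences of response, came from a fit of all 38 libraries. That fit treats libraries as independent, although populations shared hearts and the labels do not say which. CPM used TMM factors over all libraries. Ratios to EC markers were tested by exact permutation with scipy 1.17.1. DESeq2 1.42.0 was an alternative. The scripts were tested on simulated data. Replicates of a group differed by 4.60 to 87.1 times counting error, so none was counted as a repeat.

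The members and gene lists were chosen with earlier results of these data known. All 8 members are named in every comparison; from 4 pathway lists, genes past the threshold are named by FDR, at most 10 per list and comparison; and the 3 genes most like each member are given.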

Additional observations from a re-analysis of the deposited data

Results flagged for a closer look

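Of 72 groups of 4 or 5 libraries tested for a library far from the rest, 5 held one, and chance gives about 1 in 20. Ccl2 was at 114 CPM in fibroblast Control-AMI replicate 4, against 4.96 to 17.7 CPM in the other 3. Cxcl12 was at 70.9 CPM in the same library, against 93.7 to 97.99 CPM. Cxcl2 was at 127 CPM in fibroblast EMPA–Pre-AMI replicate 4, against 27.8 to 38.4 CPM. Cxcl12 was at 180 CPM in cardiomyocyte EMPA–Pre-AMI replicate 1, against 137 to 141 CPM. Ccl11 was at 0.306 CPM in Sham EC replicate 3, which is 1 count where the others had 0.

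The response of Cxcl12 to AMI differed between ECs and fibroblasts by -1.20 on the log2 scale (FDR = 0.0118). Relative to EC markers the EC part was -0.07 in mean log2 (exact permutation p = 0.6), and the part of cell makeup was not tested. The contrast of EMPA–Pre-AMI with Control-AMI for Ccl11 differed between the same populations by a fitted -3.96 (FDR = 0.0438), a size that is not well determined. It rests on 20 and 9 counts in 2 Control-AMI EC libraries and on 0 or 1 count in each EMPA–Pre-AMI EC library, left-out libraries moved it between -4.44 and -2.93, and 10 of 17 of those fits and 3 of 6 alternatives ended the call.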

How the results depend on the processing

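Counts of members past the threshold changed. In ECs, Control-AMI against Sham gave 4 with DESeq2 and 4 without robust estimation (Cxcl1 and Cxcl2 beside Cxcl12 and Cx3cl1), and 1 within sheet run 2 (Cxcl2); the sheet run term gave 2, which were Cxcl1 and Cxcl2 in place of Cxcl12 and Cx3cl1, the replicate block gave 3, adding Cxcl1, and no filter gave 3, adding Ccl7. EMPA–Pre-AMI against Control-AMI gave 0 in ECs without robust estimation, with a minimum of 10 counts per library, with only the groups compared and with the replicate block, and Cxcl2 in place of Cxcl12 with the sheet run term and within sheet run 2; against Sham the sheet run term gave 1 (Cxcl2). In fibroblasts, Control-AMI against Sham gave 1 (Cxcl5) with DESeq2, without robust estimation, with only the groups compared and with the replicate block, and 2 with the sheet run term and within sheet run 1, where Control-AMI is replicate 4 alone. EMPA–Pre-AMI against Sham gave 2 with DESeq2, without robust estimation and with the replicate block, 3 within sheet run 1, where that group is replicate 4 alone, and 0 with no filter, with a minimum of 10 counts per library (which drops Cxcl5), with only the groups compared and within sheet run 4. In cardiomyocytes EMPA–Pre-AMI against Sham gave 2 with DESeq2, 3 without a filter and 1 with the replicate block. Between Sham cardiomyocytes and fibroblasts the sheet run term gave 2, between Sham ECs and fibroblasts it gave 5, and between Sham cardiomyocytes and ECs no filter gave 3 and left-out libraries 3 to 4 (Ccl7 lost). The EC minus fibroblast difference gave 0 for AMI with the replicate block (Cxcl12 FDR = 0.0508), and 0 for EMPA with RLE factors, the replicate block and the sheet run term. Leaving out 1 library gave counts of 0 to 3 for Control-AMI against Sham in ECs, 0 to 2 for EMPA–Pre-AMI against Control-AMI in ECs, 0 to 1 and 0 to 2 for EMPA–Pre-AMI against Control-AMI and Sham in cardiomyocytes, 0 to 1 for each AMI group against Sham in fibroblasts, and 0 to 2 and 0 to 1 for the EMPA response of ECs minus fibroblasts and minus cardiomyocytes.

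Signs that turned all belonged to values not past the threshold. With the sheet run term Cxcl1 and Cxcl2 in cardiomyocytes were at -1.89 and -2.26 (EMPA–Pre-AMI against Control-AMI), Cxcl1 at -0.66 (against Sham), and Cx3cl1 in Control-AMI fibroblasts at 0.32. Within sheet run 4, where Sham is replicate 1 alone, Control-AMI fibroblasts had Cxcl1 at -0.14 and Cx3cl1 at 1.88, and EMPA–Pre-AMI fibroblasts had Ccl11 at -0.18. Relative to EC markers Cxcl12 in EMPA–Pre-AMI against Sham ECs was at 0.0888. Left-out libraries moved the unscaled log2 fold change of Cxcl12 in that comparison between -0.17 and 0.10, fibroblast Ccl2 (Control-AMI against Sham) between -0.69 and 1.51, and fibroblast Cxcl5 (EMPA–Pre-AMI against Control-AMI) between -0.23 and 1.52. The cause was not tested. Of 1000 refits of 52 log2 fold changes of single members, 886 kept sign and side of the threshold. Equal replicate numbers do not mark shared animals in the labels, so the replicate block was not read as a pairing. Deviations of same-numbered libraries correlated above 0.1 in 0 of 12 pairs in cardiomyocytes, 3 of 12 in ECs and 6 of 12 in fibroblasts. The highest value, 0.46, was for replicate 4 of Control-AMI and EMPA–Pre-AMI fibroblasts, both of sheet run 1. What the block holds in fibroblasts was not tested.

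Counts of all genes past the threshold moved by over 1.5 times as follows. In cardiomyocytes, Control-AMI against Sham went from 6 to 18 (DESeq2), 14 (no filter), 20 (only the groups compared), 3 (replicate block) and 20 (sheet run term), EMPA–Pre-AMI against Control-AMI from 2 to 812 (DESeq2), 338 (no filter), 284 (minimum of 10) and 0 in the other 3, and EMPA–Pre-AMI against Sham from 31 to 201, 94, 19 (only the groups compared) and 2 (sheet run term). Without cardiomyocyte EMPA–Pre-AMI replicate 4 the latter 2 gave 1498 and 943. In ECs, Control-AMI against Sham went from 685 to 234 (sheet run term) and 180 (run 2), and EMPA–Pre-AMI against Control-AMI from 274 to 458 (no filter), 125 (minimum of 10), 149 (replicate block), 9 (sheet run term) and 3 (run 2). In fibroblasts, Control-AMI against Sham went from 445 to 772 (DESeq2), 819 (sheet run term), 226 (run 1) and 197 (run 4), and EMPA–Pre-AMI against Sham from 546 to 858, 985, 304 and 182. Sham ECs against fibroblasts went from 4558 to 2558 (sheet run term), and the EC minus fibroblast difference from 389 to 182 (replicate block) and 246 (sheet run term) for AMI and from 247 to 112 (replicate block) for EMPA. Single left-out libraries lowered the EC counts to as few as 341 (from 685, Sham replicate 3) and 136 (from 274, Control-AMI replicate 1), and the fibroblast counts to 228 and 264 (from 445 and 546, Sham replicate 2). Differences involving cardiomyocytes moved likewise. The within-run subsets and the EC marker scale were chosen after seeing the data. Depth limited Ccl2, Ccl7, Ccl11 and Cxcl5 in ECs and cardiomyocytes, where many libraries held at most 3 counts.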
